A study of Mus musculus with 15 samples.

Results

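The islet hormone genes examined here were the 10 genes Ins1, Ins2, Iapp, Ucn3, Gcg, Sst, Ppy, Pyy, Npy and Ghrl, of 22028 protein-coding genes in the GENCODE mouse annotation of GRCm38. They were chosen by name, as genes for peptides that islet endocrine cells secrete, and not by a rule on measured values. The choice was made with earlier results of these data known. For each gene a promoter window, 1 kb either side of every annotated start site, and a gene window, the gene body with 20 kb either side, were searched for peaks of 2 histone marks. Acetylation of lysine 27 of histone H3 (H3K27Ac) accompanies active promoters and enhancers, and trimethylation of the same residue (H3K27Me3) accompanies repression by Polycomb complexes.

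The marks were mapped by chromatin immunoprecipitation and sequencing (ChIP-seq) in hand-picked, pooled pancreatic islets of adult male CBA mice, with about 600 islets per experiment. The 3 groups were mice on a regular diet (RD), mice on a high-fat diet (HFD) and mice on the same high-fat diet formulated with O304, an activator of the energy sensor AMPK (HFD-O304). The labels name no genetic change in any of them. Of 15 samples, 12 were ChIP samples and 3 were inputs. The 2 replicates of each mark and diet had been merged before peaks were called, so each of the 6 peak lists stood alone. The spread between replicates is therefore unknown, and no difference between diets was tested.

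The islet hormones are divided among several endocrine cell types. Beta cells make insulin (rodents carry the genes Ins1 and Ins2), islet amyloid polypeptide (Iapp) and urocortin 3 (Ucn3), alpha cells make glucagon (Gcg), delta cells somatostatin (Sst), PP cells pancreatic polypeptide (Ppy) and epsilon cells ghrelin (Ghrl). Peptide YY (Pyy) and neuropeptide Y (Npy) are close relatives of pancreatic polypeptide. Beta cells are the most abundant endocrine cell of the mouse islet, so that chromatin of the rarer cell types is diluted in whole islets. In such bulk material fewer cells of a type and less mark per cell cannot be told apart.

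The promoters of Ins1 and Npy are shown first because they marked the ends of the range of CpG content, the density of CG dinucleotides, among the 9 hormone genes with a RefSeq promoter sequence (GRCm38.p6, 250 bases upstream of the start site, both on the plus strand). Ins1 is taken from chr19:52264047-52264296 and capitals mark 1 CATCTG, an E box that beta cell bHLH factors are known to bind in insulin promoters, and 3 matches to TAAT, the homeodomain core, read on either strand. Npy is taken from chr6:49822460-49822709 and capitals mark its 21 CG dinucleotides, of which Ins1 held 0. The sequences are those of the C57BL/6J reference and not of the CBA strain.
Ins1: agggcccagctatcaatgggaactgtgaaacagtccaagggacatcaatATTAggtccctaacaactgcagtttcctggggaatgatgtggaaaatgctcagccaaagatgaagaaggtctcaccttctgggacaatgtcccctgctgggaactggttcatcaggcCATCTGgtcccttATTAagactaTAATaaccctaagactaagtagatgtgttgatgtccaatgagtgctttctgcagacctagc
Npy: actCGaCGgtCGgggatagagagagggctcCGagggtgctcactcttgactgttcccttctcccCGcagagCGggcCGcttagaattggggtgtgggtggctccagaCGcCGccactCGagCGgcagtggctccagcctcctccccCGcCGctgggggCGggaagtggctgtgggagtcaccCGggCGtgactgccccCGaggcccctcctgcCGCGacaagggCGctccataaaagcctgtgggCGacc

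A further pair of sequences shows stretches away from promoters on which results below turn, both on the plus strand of GRCm38. The site shared by Ppy and Pyy, chr11:102097448-102097718, is the part covered by H3K27Ac peaks in all 3 diets, with its 1 E box (CANNTG) in capitals. The site upstream of Ucn3, chr13:3964431-3964730, is the centre of the stretch covered by peaks of both marks in all 3 diets, with its 1 CG in capitals. Its 300 bases held 48 copies of the 6 letters TGTGTC or TGTGCC, and 100% of them were masked as repeats in the reference.
Ppy and Pyy site: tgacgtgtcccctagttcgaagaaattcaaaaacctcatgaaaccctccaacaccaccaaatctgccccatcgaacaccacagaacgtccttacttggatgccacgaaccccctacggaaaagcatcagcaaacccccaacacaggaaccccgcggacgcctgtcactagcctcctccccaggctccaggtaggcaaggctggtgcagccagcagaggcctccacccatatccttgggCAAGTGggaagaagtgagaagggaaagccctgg
Ucn3 site: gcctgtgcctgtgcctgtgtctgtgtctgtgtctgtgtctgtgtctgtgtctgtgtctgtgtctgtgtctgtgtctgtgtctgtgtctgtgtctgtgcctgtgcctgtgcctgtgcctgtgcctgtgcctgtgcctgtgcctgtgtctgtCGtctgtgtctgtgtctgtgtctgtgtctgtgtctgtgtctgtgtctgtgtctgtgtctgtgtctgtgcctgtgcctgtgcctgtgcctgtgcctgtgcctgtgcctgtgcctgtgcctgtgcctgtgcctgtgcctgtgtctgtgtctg

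Values are given as the mean pileup of a peak, in fragments per base, over the uniform background that the file headers define (kept fragments times fragment length over genome size), called the ratio here. The lists held 16314 to 21674 H3K27Ac peaks on 83773042 to 95218072 kept fragments, and 15438 to 22049 H3K27Me3 peaks on 54166902 to 74870300. By diet (RD, HFD, HFD-O304) the lowest ratio called was 2.40, 2.26 and 2.37 for H3K27Ac and 2.74, 3.10 and 2.97 for H3K27Me3. No peak could be shorter than about 1 fragment, 269 to 270 bp for H3K27Ac and 219 to 223 bp for H3K27Me3. The absence of a peak therefore says only that no stretch of that length passed the limit of its list. Intervals are 95% exact Poisson intervals on the fragments behind a peak and cover counting error only. As a check of the tissue, 6, 7 and 7 of 7 islet endocrine marker genes carried H3K27Ac at the promoter in these diets. Of all protein-coding genes 47.2%, 53.3% and 52.6% did. The same mark lay at 1 of 9 acinar markers in every diet (Bhlha15) and at 0 of 9 endothelial, macrophage and mesenchymal markers. Bhlha15 was named after its values were seen.

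H3K27Ac was called in the promoter windows of 3 or 4 of the 10 hormone genes, depending on the diet. In RD it was found at 3 of the 10 (Ins1, Ins2 and Ucn3), against 47.2% of all protein-coding genes. In HFD it was called at 4 (the same 3 and Npy), against 53.3%, and in HFD-O304 at 3 (Ins2, Ucn3 and Npy), against 52.6%. With only 10 genes these counts are coarse, and their distance from the shares over all genes was not tested. All 3 genes with the mark in RD are expressed mainly in beta cells. H3K27Me3 was called at 1 hormone gene promoter, that of Npy, in each diet, against 8.01%, 9.88% and 10.6% of genes in the same order of diets. Npy was thus also the 1 gene of the 10 with both marks at its promoter in at least 1 diet (5.68% of all genes).

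**Figure D1:**
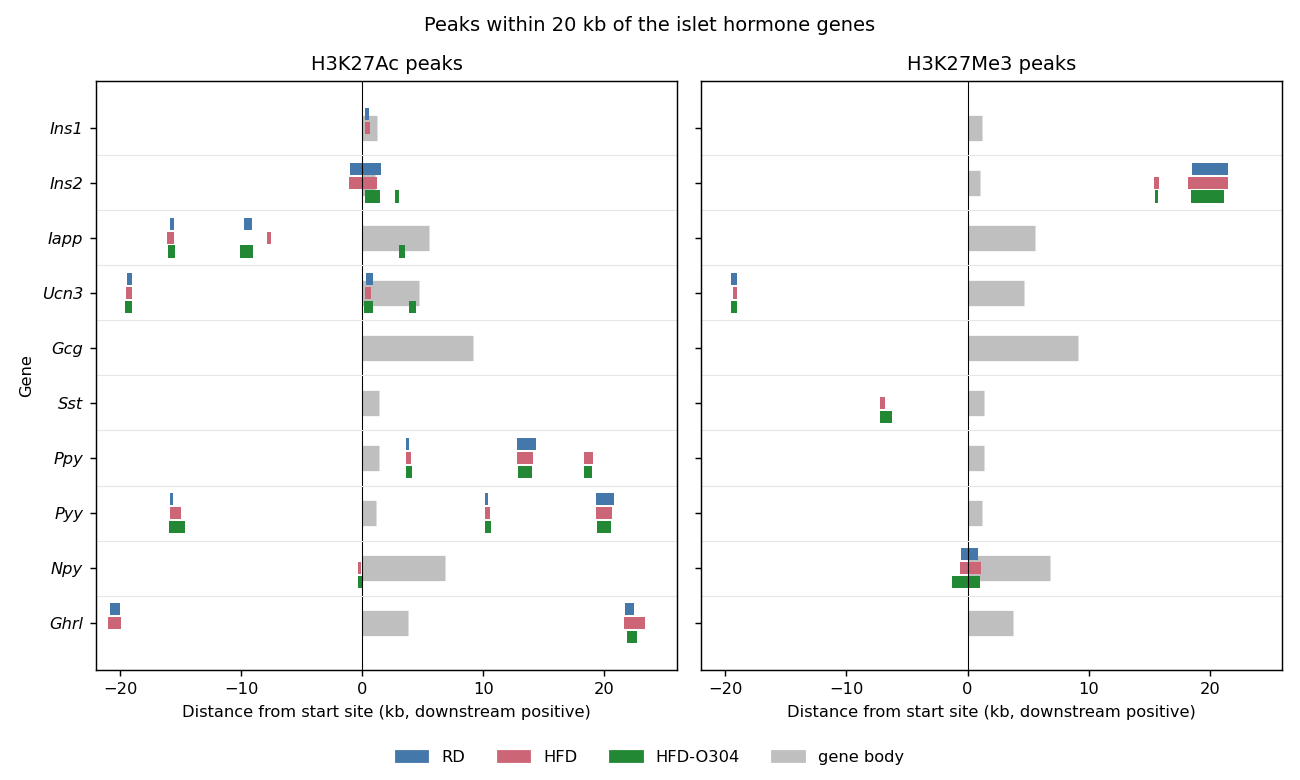
Peaks of H3K27Ac (left) and H3K27Me3 (right) around each islet hormone gene (vertical axis), by distance from the start site in kb on the horizontal axis, with downstream positive. Coloured bars are peaks of the RD, HFD and HFD-O304 lists within 20 kb of the gene body, drawn at least 0.25 kb wide, and grey bars are gene bodies. Bars at the start site are seen for Ins1, Ins2, Ucn3 and Npy alone, and Gcg has no bar in either panel.

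The insulin genes differed in how the H3K27Ac peak sat on them. At Ins1 the peak lay inside the transcribed part, over exonic sequence (chr19:52264545-52264885 in RD and chr19:52264533-52264964 in HFD). It began 248 bp downstream of the start site in RD and 236 bp in HFD, and was 341 bp and 432 bp long. The ratio was 2.86 (2.09 to 3.87, 44 fragments) in RD and 3.12 (2.44 to 3.97, 69 fragments) in HFD. The intervals overlapped, and both values lay below the median promoter peak of their list (3.12 in RD and 3.18 in HFD), at the 29.2nd and 46.5th percentile. In HFD-O304 no peak was called at Ins1, and the nearest was 309 kb away. No H3K27Me3 peak reached the Ins1 window in any diet.

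At Ins2, the insulin gene shared with other mammals, the peak was long rather than high. It ran from 1.03 kb upstream to 1.55 kb downstream of the RefSeq start site in RD, a length of 2579 bp (325 fragments, ratio 2.81, 2.52 to 3.14). In HFD it ran from 1.08 kb upstream to 1.21 kb downstream, 2293 bp in all (321 fragments, ratio 2.75, 2.46 to 3.07). These lengths lay at the 95.9th and 91.1st percentile of promoter peaks, whereas the ratios lay at the 25.4th and 25.3rd. In HFD-O304 the peak began 0.253 kb downstream of the start site, so the upstream flank was not called, and was 1244 bp long (155 fragments, ratio 2.75, 2.34 to 3.22), at the 62.9th percentile of length. A second, separate peak of 402 bp lay 2.47 kb downstream of the nearest annotated start site in HFD-O304 only (ratio 2.59, 1.90 to 3.43).

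The ratio at Ins2 thus stayed within 2.75 to 2.81 while the called length fell from 2579 bp to 1244 bp between RD and HFD-O304. The peaks of the insulin genes shared little exact sequence: between 0 and 7 of the stretches of 50 bases in a peak, at most 1.83%, occurred exactly in the other gene's region of the reference. The GENCODE span of Ins2 is 64726 bp, far longer than the 1071 bp of the RefSeq gene, because of transcripts that read through from upstream, yet 0 separate peaks of any list lay in the additional part, into which the RD and HFD peaks at the start site reached.

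H3K27Me3 was absent from Ins2 itself but lay at the start site of Igf2, the imprinted growth factor gene downstream, which falls in the Ins2 window. That peak was present in all 3 diets, 18.0 to 18.3 kb from the nearest Ins2 start site, with lengths of 2981, 3300 and 2733 bp (here and below such triplets follow the order RD, HFD, HFD-O304). Its ratio was 2.91 (2.61 to 3.23), 3.67 (3.30 to 4.08) and 3.49 (3.10 to 3.91). The counting intervals of RD and HFD did not overlap, but the lowest ratio called also differed between those lists, from 2.74 to 3.10, and the difference could not be tested. A shorter H3K27Me3 peak, 15.2 to 15.3 kb downstream, was called in HFD (401 bp, ratio 3.42) and HFD-O304 (240 bp, ratio 3.56) and not in RD.

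Ucn3, a marker of mature beta cells, carried H3K27Ac just downstream of its start site in every diet. The peak began 332, 262 and 175 bp downstream and spanned 582, 428 and 718 bp. Its ratio was 2.54 (1.96 to 3.22), 2.48 (1.86 to 3.23) and 2.69 (2.14 to 3.30) by diet, so the 3 intervals overlapped. All of these lay low among promoter peaks, between the 6.10th and the 15.6th percentile. HFD-O304 alone had a second peak in the gene, over exonic sequence 3.85 kb downstream (574 bp, ratio 2.69, 2.1 to 3.40).

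A site 19.01 to 19.06 kb upstream of Ucn3 was called for both marks in all 3 diets, and its sequence is the tandem repeat printed above. For H3K27Ac its ratio was 2.88 (2.14 to 3.84), 3.24 (2.60 to 4.02) and 3.22 (2.55 to 3.98). For H3K27Me3 it was 5.25 (4.29 to 6.38), 3.49 (2.45 to 4.89) and 4.81 (3.73 to 6.09), which in RD was the highest ratio of any peak in a hormone gene window. Every one of the 6 peaks was 100% repeat-masked. Peaks with at least 50% of their bases masked made up 62.5% to 67.9% of the H3K27Me3 lists and 13.7% to 16.9% of the H3K27Ac lists. What part repeats played in this signal was not tested, and without the repeat-masked peaks Ucn3 had no H3K27Me3 in its window.

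Iapp, whose product is co-secreted with insulin and forms islet amyloid in some species, had no promoter peak of either mark in any diet. Its H3K27Ac lay upstream, within the span of the neighbouring gene Slco1a5, which was named after its position was seen. A site 15.4 to 15.5 kb upstream was called in all 3 diets, with ratios of 2.49 (1.78 to 3.43), 2.51 (1.95 to 3.18) and 2.90 (2.29 to 3.65), and 61.7% to 73.5% of its bases were masked. A site 9.00 to 9.07 kb upstream was called in RD (719 bp, ratio 2.53) and HFD-O304 (1087 bp, ratio 2.75). HFD had instead a peak of 282 bp 7.56 kb upstream (ratio 2.42), 99.6% of which was masked, and HFD-O304 had a peak of 509 bp in an intron, 3.03 kb downstream of the nearest start site (ratio 2.39, against a lowest called value of 2.37). No H3K27Me3 peak lay within the Iapp window in any diet.

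The genes of the other major islet hormones were bare of H3K27Ac. Gcg, which also encodes GLP-1, had 0 peaks of either mark in its window of 49121 bp in any diet. Its nearest H3K27Ac peak was 68.6 to 69.0 kb away and its nearest H3K27Me3 peak 280 kb away in each diet. Sst likewise had no H3K27Ac peak in its window, and the nearest lay 50.1 to 50.2 kb upstream in all 3 diets. These were the 2 hormone genes with no H3K27Ac in the gene window in any diet, a state shared by 27.8% of all genes.

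Sst, which restrains the secretion of both insulin and glucagon, had a peak of H3K27Me3 upstream in the 2 high-fat groups. In HFD it spanned 428 bp, 6.84 kb from the start site (ratio 3.24, 2.31 to 4.39, 40 fragments). In HFD-O304 it spanned 989 bp, 6.25 kb from the start site (ratio 3.36, 2.74 to 4.08, 102 fragments). In RD none was called, and the nearest H3K27Me3 peak was 52.1 kb away. Masked bases made up 18.2% and 14.4% of these peaks. The lowest ratios called in these lists were 3.10 and 2.97, and the 2 peaks stood at the 14.9th and 44.1st percentile of all peaks of their lists.

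Ppy and Pyy are neighbours on chromosome 11 and their windows share sites, so they do not count as independent. Neither had a promoter peak of either mark, nor any H3K27Me3 in its window. The nearest H3K27Ac site lay 3.58 to 3.59 kb downstream of Ppy, and 9.68 to 9.70 kb from Pyy, in every diet. It measured 271, 442 and 535 bp, and its ratio was 2.69 (1.87 to 3.82), 2.71 (2.07 to 3.48) and 3.02 (2.36 to 3.79). The RD peak was thus 1 bp over the fragment length of its list, and the intervals of the 3 diets overlapped. E boxes occurred in 66.9% of the central 300 bases of H3K27Ac peaks in HFD, so the 1 E box of this site is a common feature.

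Further sites surrounded this pair of genes. At start sites of Mpp2, a membrane scaffold gene, H3K27Ac was called 12.8 kb downstream of Ppy in all 3 diets (ratios 2.66, 2.98 and 2.84), and 18.3 kb downstream in HFD (2.28) and HFD-O304 (2.50). Upstream of Pyy, away from any start site, a peak was called 14.6 to 15.6 kb away in all 3 diets. It measured 289, 920 and 1306 bp, with ratios of 2.66 (1.82 to 3.67), 2.43 (2.01 to 2.92) and 2.51 (2.13 to 2.96). The called length was greatest in HFD-O304 and least in RD, whereas the ratio was highest in RD, with overlapping intervals.

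Npy, which acts through Y receptors and in rodents is made mainly by neurons, was the gene of the 10 where H3K27Me3 covered the start site. The peak, chr6:49822181-49823544 in RD, spanned 1364, 1669 and 2315 bp, with 190, 216 and 313 fragments. Its ratio was 3.49 (3.0 to 4.01), 4.47 (3.89 to 5.11) and 4.40 (3.94 to 4.93) in the same order. The ratio lay at the 88.6th, 93.8th and 94.9th percentile of promoter peaks of this mark, in contrast to the hormone genes' H3K27Ac promoter peaks, all 10 of which lay below the median of theirs (3.33rd to 46.5th percentile).

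H3K27Ac was called beside H3K27Me3 at Npy in the 2 high-fat groups. In HFD the peak was 280 bp long and ended 73 bp upstream of the start site (ratio 2.37, 1.65 to 3.33, 34 fragments). In HFD-O304 it was 483 bp long and covered the start site (ratio 2.51, 1.89 to 3.27, 55 fragments). The RD list had no peak there, and its nearest was 67.1 kb away. Both peaks were near the limits of calling: the HFD ratio compares with a lowest called ratio of 2.26 and its length with a shortest possible peak of 269 bp. It also lay below 2.40, the lowest ratio called in RD, and was lost when a common fold limit was set for the 3 lists, which left 3 promoters with H3K27Ac in HFD. Cutting the lists to the size of the shortest left 2 promoters in HFD (of 4) and 2 in HFD-O304 (of 3). The Npy peak had the lowest ratio of the hormone gene promoters in both of these lists, so its difference from RD may rest on list size. Whether the marks lay on the same molecules or in different cells cannot be told apart in pooled islets.

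Ghrl, the gene of the appetite hormone ghrelin, had no peak of either mark of its own. Its window held H3K27Ac at its edges only. One peak, at the start site of the neighbouring nuclease gene Tatdn2, lay 19.4 to 19.6 kb downstream with ratios of 3.80, 3.42 and 3.95. The other, over a start site of the neighbouring gene Sec13, lay 20.0 kb upstream in RD (ratio 3.39) and 19.9 kb upstream in HFD (4.01). Sec13 was named after its position was seen. The same stretch had a peak in HFD-O304 as well (ratio 3.97), which at 20.037 kb fell just outside the window, so the apparent difference between diets was one of the window's edge. No H3K27Me3 peak was within 411 kb of Ghrl in any diet.

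**Figure D2:**
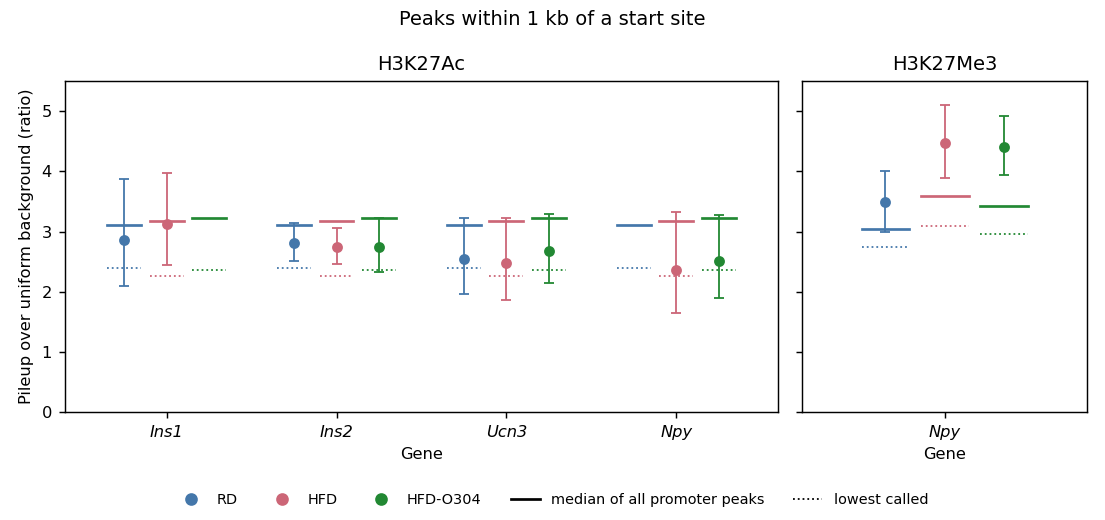
Pileup over uniform background (vertical axis, a ratio) of peaks within 1 kb of a start site of the hormone genes (horizontal axis), for H3K27Ac (left) and H3K27Me3 (right). Points are the single peak of each list with 95% exact Poisson intervals, solid lines the median of all promoter peaks of that list and dotted lines its lowest called ratio. The H3K27Ac points lie between 2.37 and 3.12, below the solid lines, and the H3K27Me3 points of Npy between 3.49 and 4.47, above them.

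Over the wider windows, H3K27Ac reached 7, 8 and 7 of the 10 hormone genes, against 63.1%, 69.3% and 67.8% of all genes. H3K27Me3 reached 3, 4 and 4, against 29.9%, 30.6% and 36.4%. These shares were near the background, so the windows did not set the hormone genes apart. The peaks formed 20 distinct sites, 17 of them with H3K27Ac and 5 with H3K27Me3, and 2 (the Ucn3 repeat and the Npy promoter) with both. Of the H3K27Ac sites 8 were called in all 3 diets, 5 in 2 and 4 in 1, counting peaks within the windows. The median ratio of these peaks was 2.69, 2.71 and 2.72, against 2.95, 2.80 and 2.92 for the whole lists. At the promoter, 2 genes differed between diets (Ins1 and Npy), where 10.4% of all genes had H3K27Ac in some but not all of the diets.

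CpG content of the promoters, which was not part of their choice, ranged from none to above the median of all promoters. CpG content is given as observed over expected CG dinucleotides in the 250 bases upstream of a start site, over 20145 promoter sequences of 16517 genes, whose median was 0.55. Of the 9 genes with a sequence, 6 lay in the 2 lower quartiles and 3 (Gcg, Sst and Npy) in the third. Of the hormone genes 9 matched a promoter sequence, and Ins2 did not. Ins1 was at 0, Ucn3 at 0.08, Ghrl at 0.06 to 0.12 over 4 start sites, Ppy at 0.22, Pyy at 0.21 to 0.29 over 2, Iapp at 0.27, Gcg at 0.56, Sst at 0.60 and Npy at 0.70. For Sst the RefSeq start lies inside the GENCODE transcript, so its window holds some bases that GENCODE counts as transcribed.

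Over all genes, promoter H3K27Ac was more frequent at higher CpG content. In the lowest quartile of CpG content 7.48%, 10.4% and 9.42% of genes carried it, in the third quartile 71.3%, 79.9% and 79.4%, and in the highest 83.6%, 89.3% and 88.7%. Ins1 and Ucn3 had the mark from within the lowest quartile, which also held Ppy and Ghrl. Iapp and Pyy stood in the second quartile (35.4%, 42.7% and 42.6% of genes) without it. Gcg and Sst had no H3K27Ac although they stood in the third quartile, where Npy had it in the 2 high-fat groups. H3K27Me3 was most frequent in the 2 middle quartiles, at 9.57% to 13.4% of genes, and least in the lowest, at 3.78% to 5.96%.

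**Figure D3:**
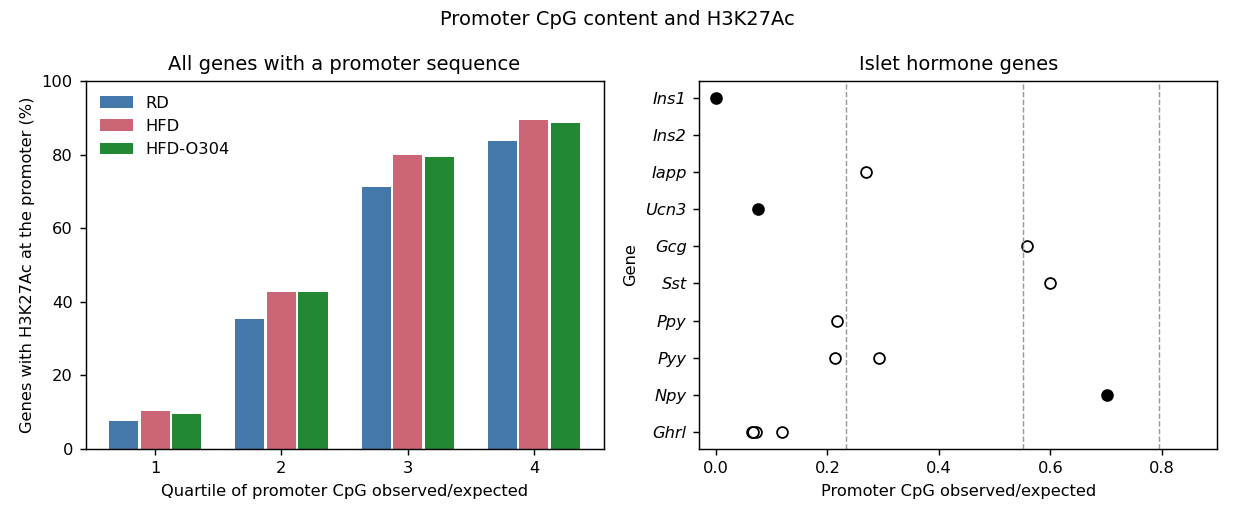
Left, share of genes with H3K27Ac at the promoter (percent) in each quartile of promoter CpG observed over expected, with 1 bar per diet. Right, CpG observed over expected of the hormone gene promoters (1 point per RefSeq start site), filled where the gene had promoter H3K27Ac in any diet, with dashed lines at the quartile limits; the filled points lie at 0 (Ins1), 0.08 (Ucn3) and 0.70 (Npy).

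Motifs of known regulators were read in the same 250 bases, on both strands, as a description. A hormone gene counted when any of its promoter sequences held the motif, whereas the shares over all promoters count single sequences. CATCTG was found in 4 of the 9 promoters (Ins1, Gcg, Iapp and Ucn3) and in 12.2% of all promoter sequences. The wider E box CANNTG, which includes it, was found in 7 of 9 and in 62.5%, and TAAT in 5 of 9 (the same 4 and Sst) and in 48.6%. The Maf factor motif TGCTGA occurred in Sst, Ppy and Pyy (14.7% of promoters), TATAAA in Gcg and Ppy (11.2%), and the cAMP response element TGACGTCA in Sst alone (1.99%). CCAAT was present in 5 of 9 (Ins1, Pyy, Iapp, Ghrl and Npy) and in 35.0%. Of the 4 genes with CATCTG, Ins1 and Ucn3 had promoter H3K27Ac in at least 2 diets and Gcg and Iapp in none.

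Genes that make, control and receive these hormones were read in the same way at their promoters. Of 11 genes of prohormone processing, which cut and package the peptides, 8, 9 and 9 carried H3K27Ac, against 47.2%, 53.3% and 52.6% of all genes. Scg2, a granin of secretory granules, had it in HFD-O304 only (ratio 3.08). Vgf, another granule protein, had H3K27Ac in HFD only (2.59) and H3K27Me3 in HFD-O304 only (3.18), and was the 1 gene of this list with H3K27Me3. These counts stand beside the 3, 4 and 3 of 10 hormone genes with promoter H3K27Ac, and the difference between the lists was not tested.

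Of 16 transcription factors that control hormone genes, 11 carried H3K27Ac in RD and 12 in each high-fat group. The share over all genes was 47.2%, 53.3% and 52.6% by diet, and the difference was not tested. Neurod1, an activator of the insulin genes, was the gene that differed (HFD 2.73, HFD-O304 2.91, no peak in RD). Nkx6-1, a beta cell factor, had H3K27Ac throughout (4.06, 4.2 and 4.36) and H3K27Me3 in HFD-O304 (3.02). That H3K27Me3 peak was near the limit of calling, with a length of 282 bp and a lowest called ratio of 2.97 in its list. Irx2, an alpha cell factor, and Hhex, the delta cell factor, had H3K27Me3 in all diets and no H3K27Ac. The H3K27Me3 ratio of Irx2 was 2.96, 3.67 and 3.46, and that of Hhex 3.04, 4.22 and 3.49.

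Among 19 receptors of the hormones, 9 carried H3K27Ac in each diet (47.4%), near the 47.2%, 53.3% and 52.6% of all genes. H3K27Me3 was carried by 6, 9 and 6, against 8.01%, 9.88% and 10.6% of all genes, and the difference was not tested. Both marks met at 4 of the 19 receptors, against 5.68% of all genes with both in at least 1 diet. These 4 were Glp1r, the GLP-1 receptor, Crhr2, the urocortin receptor, Ramp1, a subunit of amylin receptors, and the somatostatin receptor gene Sstr4. Crhr2 had both in every diet (H3K27Ac 2.65, 2.80 and 2.84, H3K27Me3 3.04, 3.76 and 3.17). Glp1r had H3K27Ac in every diet (3.07, 3.17 and 3.27) and H3K27Me3 in RD (3.71) and HFD (3.41). Ramp1 had H3K27Ac in every diet (2.70, 2.95 and 2.85) and H3K27Me3 in RD (2.76). Sstr4 had H3K27Ac in RD (2.70) and H3K27Me3 in RD (2.90) and HFD (3.33).

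Other receptor genes carried a single mark or none. Sstr5 (2.87, 3.64 and 3.89) and Ghsr, the ghrelin receptor (3.05, 3.37 and 3.23), had H3K27Me3 in all diets. Sstr1 (3.12 and 3.14), Npy2r (3.15 and 3.32) and Npy5r (3.15 and 3.15) had it in HFD and HFD-O304. The calcitonin receptor gene Calcr, which forms amylin receptors with the Ramp proteins, had it in HFD (3.10). Sstr2, in contrast, had H3K27Ac in HFD (2.42) and HFD-O304 (2.46) and no H3K27Me3, and Sstr3 had H3K27Ac in every diet (2.80, 2.99 and 2.74) and no H3K27Me3. Npy1r and Npy4r had neither mark in any diet. Sstr3, Npy1r and Npy4r were named after their values were seen.

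**Figure D4:**
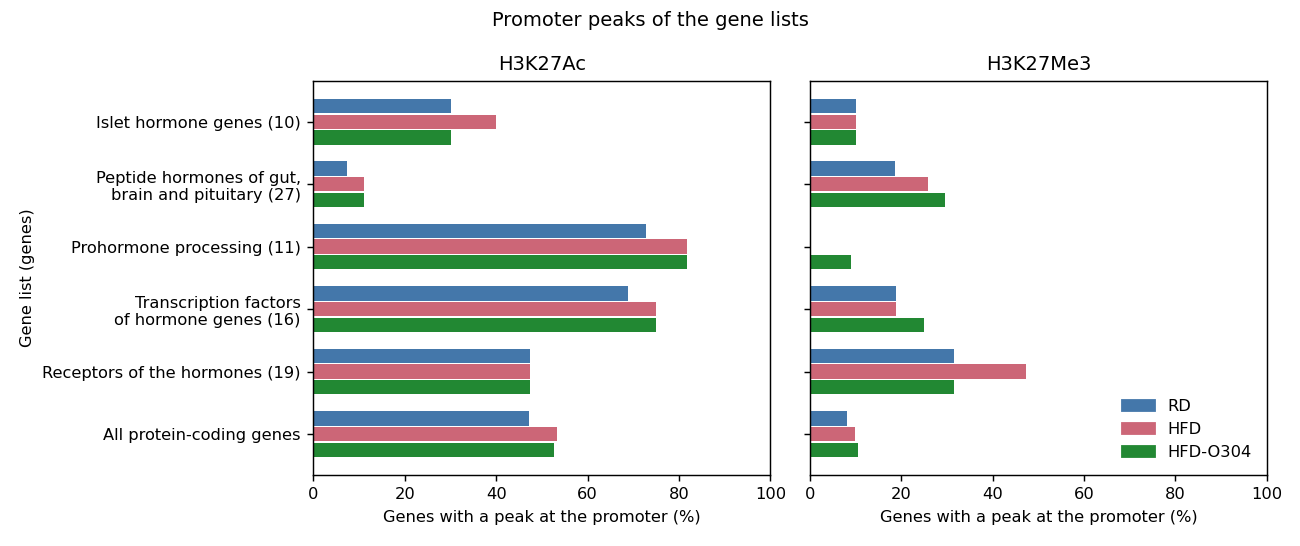
Share of genes with a promoter peak (horizontal axis, percent) of H3K27Ac (left) and H3K27Me3 (right) in each gene list (vertical axis, number of genes in brackets), with 1 bar per diet. H3K27Ac lay at 3, 4 and 3 of the 10 islet hormone genes and at 8, 9 and 9 of the 11 prohormone processing genes, by diet in the order of the bars. The last row gives all protein-coding genes, 47.2%, 53.3% and 52.6% for H3K27Ac.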

How the data were processed

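Peak lists of 2 histone marks in islets of 3 diet groups were used, 1 list per mark and diet. The authors mapped paired-end reads to GRCm38 with bowtie2, merged the 2 replicates of a group and used MACS 2.1.2 in its broad mode. The settings stand in the file headers: the q-value cutoff was 0.01, 1 fragment was kept per position, paired fragments were used as such, no control was given and the background was uniform. The deposited lists give for each peak the mean pileup (a coverage signal in fragments per base), the −log10 q and the fold enrichment. That deposited ratio equalled pileup plus 1 over background plus 1 within 2.00%. The input samples were not analysed here.

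The ratio used in the text is the deposited pileup over the uniform background of the header. Start sites and gene bodies came from GENCODE release M21 and promoter sequences from RefSeq (GRCm38.p6). A gene carried a mark when a peak overlapped its window by at least 1 bp. Percentiles are the share of a list's promoter peaks at or below the value. The overlap code was tested on simulated peaks, with 0 of 5000 genes wrong. With 1 list per group no test between diets was run. All 10 genes were named, neighbours only with a peak at a start site inside a window, and genes of the other lists when they carried H3K27Me3 or both marks or differed between diets. Slco1a5 and Sec13 were named outside the rule for neighbours. The genes and lists were chosen with earlier results of these data known. Some genes of these lists are not reported here by name. Alternatives were a stricter q, a common fold limit, equal list sizes, removal of repeat-masked peaks and other windows. Python 3.11.15, numpy 2.4.6, pandas 2.3.3, scipy 1.17.1 and matplotlib 3.10.9 were used.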

Additional observations from a re-analysis of the deposited data

How the results depend on the processing

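No paired analysis was possible because each list was called on merged replicates, which also means that leaving out a replicate could not be tried. Of 135 recomputed counts and covered lengths 105 stayed within 1.5 times their value, and 30 did not. With a limit of 5 on −log10 q, H3K27Ac was left at 0 promoters in RD (of 3), 1 in HFD (of 4) and 0 in HFD-O304 (of 3), and in 1, 5 and 4 gene windows (of 7, 8 and 7), covering 0.72, 4.05 and 1.91 kb (of 7.72, 9.97 and 10.7 kb). For H3K27Me3 it left 1 and 2 gene windows in HFD and HFD-O304 (of 4 and 4), and 1.85, 1.67 and 2.78 kb in the 3 diets (of 4.39, 5.70 and 6.65 kb). Cutting the HFD and HFD-O304 lists to the size of the shortest H3K27Ac list left 2 promoters in each (of 4 and 3). A common fold limit left 1.85 kb of H3K27Me3 in RD, and the H3K27Ac peak at the Npy promoter in HFD was lost under it (3 promoters of 4).

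Narrower windows of 10 kb gave 4.49, 4.16 and 5.46 kb of H3K27Ac, and for H3K27Me3 1, 2 and 2 genes and 1.36, 2.1 and 3.30 kb. Windows of 50 kb gave 5 genes in RD and 7 in HFD-O304 with H3K27Me3, and 7.53, 12.33 and 12.38 kb. These moves follow from how each alternative was built, since it keeps fewer peaks or searches more or less sequence. Promoter windows of 500 bp or 2 kb, the most upstream start site alone, at least 50% of the peak inside the window and the RefSeq span of Ins2 (chosen after seeing the data) moved no count by over 1.5 times. The depth of the lists sets the lowest ratio called, so weaker enrichment was not detectable.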

Other observations

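The marks were also read at peptide hormone genes of the gut, brain and pituitary, a list of 27 genes outside the islet set. By diet (RD, HFD, HFD-O304), H3K27Ac lay at 2, 3 and 3 of their promoters and H3K27Me3 at 5, 7 and 8, against 47.2%, 53.3% and 52.6% of all genes for H3K27Ac and 8.01%, 9.88% and 10.6% for H3K27Me3. Agrp, a hypothalamic peptide that raises appetite, was the 1 gene with H3K27Ac in every diet (ratios 3.71, 4.04 and 3.80), and was named after its values were seen. Against 5.68% of all genes with both marks in at least 1 diet, both were found at 4 of the 27 genes, as they were at Npy. These were Cartpt, the CART peptide of beta and nerve cells (H3K27Ac in HFD 2.68, H3K27Me3 3.37, 5.09 and 3.49), Crh, the stress hormone releasing factor (H3K27Ac in RD 2.66, H3K27Me3 3.58, 4.10 and 4.04), Gal, for galanin (H3K27Ac in HFD 2.37 and HFD-O304 2.59, H3K27Me3 3.21, 3.24 and 3.84) and Oxt, for oxytocin (H3K27Ac in HFD-O304 2.47, H3K27Me3 3.49, 3.59 and 3.28). At all 4 of them H3K27Me3 was called in every diet and H3K27Ac in 1 or 2.

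The tachykinin gene Tac1 had H3K27Me3 alone in every diet (3.0, 3.86 and 3.18). Cck, for cholecystokinin (3.38 and 3.81), and Adcyap1, for the neuropeptide PACAP (3.43 and 3.17), had it in HFD and HFD-O304, and Calcb, for a form of CGRP, in HFD-O304 (3.24). The lowest H3K27Me3 ratio called was 2.74 in RD, against 3.10 in HFD and 2.97 in HFD-O304. No difference between diets was tested.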
